A study of Mus musculus with 4 samples.

Results

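The carboxylesterases described here are 10 mouse liver genes, Ces1c, Ces1d, Ces1e, Ces1f, Ces1g, Ces2a, Ces2c, Ces2e, Ces3a and Ces3b, chosen by name from the 13903 genes of a bulk mRNA-seq table. The table lists 15 carboxylesterase genes in all, and the other 5 are Ces1a, Ces1b, Ces2b, Ces2g and Ces4a. RNA came from the livers of OGT-floxed C57BL/6J mice, all of them fed a CDE diet (choline-deficient, ethionine-supplemented), which injures the liver. The label OGT-KO marks mice given AAV8-TBG-CRE, a viral vector with Cre recombinase behind the hepatocyte promoter TBG, and the label control marks mice given AAV8-TBG-eGFP, which carries a green fluorescent protein and no Cre. Tissue was collected straight after the diet (no recovery) or 7 days later, so that 4 conditions were compared. Each condition is 1 library, an equal pool of RNA from 3 mice, and age, sex and the time since the virus are not given in the sources used here. No mice on a normal diet were among the libraries. With 1 library per condition no value has a replicate error, no test between conditions was run, and every difference below compares pools of mice and not conditions.

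Carboxylesterases are serine hydrolases that cut ester and amide bonds, and most of the liver enzymes sit in the lumen of the endoplasmic reticulum of hepatocytes. They hydrolyse drugs and prodrugs, and several of them hydrolyse stored triglyceride or cholesteryl ester, which feeds the assembly of very-low-density lipoprotein. The mouse has many more of these genes than the human genome, where CES1 and CES2 are the main enzymes of liver and intestine.

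All members lie on chromosome 8, in a pair of gene clusters of the GRCm38 genome (GENCODE M21 annotation). The Ces1 members Ces1c, Ces1d, Ces1e, Ces1f and Ces1g are on the minus strand of the first cluster, from 93020214 to 93535830, which spans 515.6 kb and holds 9 annotated carboxylesterase genes, of which 7 are listed in the table. The members Ces2a, Ces2c, Ces2e, Ces3a and Ces3b are on the plus strand of the second cluster, from 104734003 to 105150109, which spans 416.1 kb and holds 11 annotated genes and pseudogenes, of which 8 are listed. The clusters are 11.20 Mb apart. Each member is a protein-coding gene with 12 to 14 exons in its longest coding transcript.

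The sequences before the start sites of 4 members are shown because these genes mark the extremes of what follows: Ces3b and Ces1e stood lowest against control with no recovery, Ces2e was the one member at or past 2-fold higher, and Ces2a is the relative of Ces2e that lay on the other side. They are the 250 bases before the start of transcription from RefSeq (GRCm38.p6), written 5′ to 3′ on the strand of the gene. Capitals mark the matches to 2 of the 6 motifs searched. The positions are chr8:105083505-105083754 (plus strand) for Ces3b, chr8:93229620-93229869 (minus strand) for Ces1e, chr8:104926010-104926259 (plus strand) for Ces2e and chr8:104733753-104734002 (plus strand) for Ces2a.
Ces3b: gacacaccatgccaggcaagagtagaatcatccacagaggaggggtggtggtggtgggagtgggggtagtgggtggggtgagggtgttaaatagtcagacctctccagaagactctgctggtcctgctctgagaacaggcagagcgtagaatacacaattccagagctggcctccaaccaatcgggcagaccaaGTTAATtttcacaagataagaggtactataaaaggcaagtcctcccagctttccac
Ces1e: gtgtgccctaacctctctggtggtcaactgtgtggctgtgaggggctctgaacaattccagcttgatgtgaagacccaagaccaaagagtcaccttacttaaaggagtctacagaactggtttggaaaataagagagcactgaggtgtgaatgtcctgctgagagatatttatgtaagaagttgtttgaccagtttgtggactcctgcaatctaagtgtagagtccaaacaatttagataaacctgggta
Ces2e: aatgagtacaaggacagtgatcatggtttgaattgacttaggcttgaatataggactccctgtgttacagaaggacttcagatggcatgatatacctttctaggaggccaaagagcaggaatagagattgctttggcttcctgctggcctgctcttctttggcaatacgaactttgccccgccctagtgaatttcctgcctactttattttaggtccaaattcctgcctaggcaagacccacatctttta
Ces2a: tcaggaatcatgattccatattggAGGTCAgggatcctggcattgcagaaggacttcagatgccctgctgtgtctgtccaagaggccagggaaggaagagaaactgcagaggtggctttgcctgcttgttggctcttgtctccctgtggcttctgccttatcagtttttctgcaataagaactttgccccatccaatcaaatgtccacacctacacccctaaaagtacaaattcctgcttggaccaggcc

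The table of RefSeq promoters held 7 of the 10 members, without Ces1d, Ces1f and Ces3a. The 6 motifs were searched on both strands of the 250 bases, in these 7 windows and in all 32851 windows of the same length. The HNF1 half-site GTTAAT was found in Ces3b, 56 to 51 bases before the start, and in 6.43% of all windows. The nuclear receptor half-site AGGTCA was found in Ces2a, 226 to 221 bases before the start, and in 14.0% of all windows. The HNF4 site CAAAGTCCA (0.384% of all windows), the NRF2 core TGACNNNGC (10.2%), the STAT5 site TTCNNNGAA (7.02%) and the C/EBP site TTGCNNAAT (2.11%) were in 0 of the 7. A match of this kind describes letters and not a bound site.

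Levels are given in CPM, reads per 1000000 reads on the listed genes. The 4 libraries held 19972699 to 22866431 such reads, so 3 reads, the least taken as detected, correspond to 0.131 to 0.150 CPM. The 100 most abundant genes took 34.1% and 34.3% of the reads in the libraries labelled OGT-KO and 42.8% and 45.0% in those labelled control. Ogt, the targeted gene, had 55.3 CPM with the label OGT-KO against 64.7 with the label control at no recovery, and 77.7 against 55.7 at 7 days. At the deposited scaling Ogt therefore went against the labels after 7 days (log2 fold change 0.47), although not with scaling by the median ratio of all genes (-0.20). For this reason the conditions are named by their labels throughout. Fold changes are differences of log2(CPM + 1), which understates the change of low genes, and a difference of at least 2-fold is counted among the 8963 genes that averaged 10 CPM or more, which include all 10 members. Intervals are 95% exact intervals on the recovered reads and cover counting error only, since amplified reads are not independent molecules.

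The carboxylesterases were abundant transcripts in the libraries labelled control. Together the 10 members had 6973 CPM at no recovery and 7094 at 7 days there, whereas with the label OGT-KO they had 1911 and 2562. The summed level was thus 3.65-fold lower with the label OGT-KO with no recovery (3.61 to 3.69) and 2.77-fold lower after 7 days (2.74 to 2.80), or 6.01-fold and 4.45-fold lower with median-ratio scaling, an alternative added for this sum after it was seen. With no recovery, 7 of the 10 members were at least 2-fold lower with the label OGT-KO, as were 5.69% of all compared genes. The one member at least 2-fold higher was Ces2e, against 24.4% of all compared genes. After 7 days 6 members were at least 2-fold lower (4.27% of compared genes) and 0 at least 2-fold higher (22.9%). The 6 were the same genes at both times, Ces1c, Ces1d, Ces1e, Ces1f, Ces3a and Ces3b (3.74% of compared genes were lower at both times and 19.2% higher at both), and Ces2a was the seventh with no recovery.

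The median log2 fold change of the members was -1.78 with no recovery and -1.27 after 7 days. The compared genes as a whole were not centred on 0, with medians of 0.51 and 0.48. Scaling by the median ratio moved these medians to -0.19 and -0.18, and with it the genes at least 2-fold lower and higher with no recovery went from 510 and 2185 to 1381 and 935. Relative to the median of all compared genes, the members' medians were -2.29 and -1.74. Bulk RNA cannot tell fewer hepatocytes from less carboxylesterase RNA per hepatocyte.

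**Figure D1:**
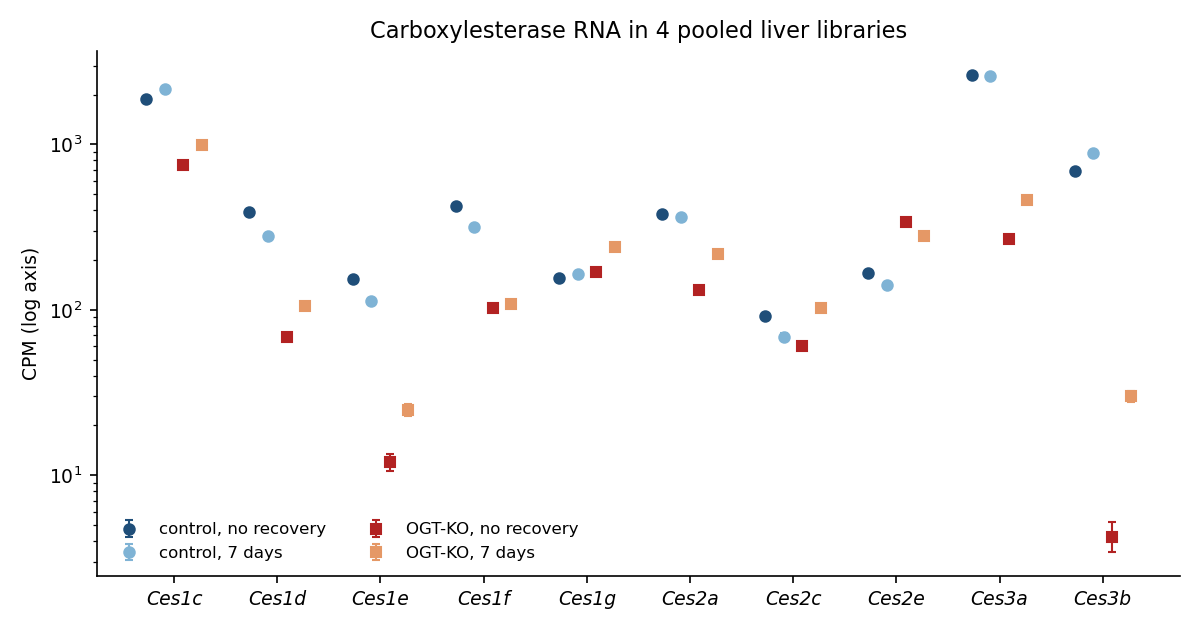
Level of each carboxylesterase in CPM (log axis) in the 4 pooled libraries, circles for the label control and squares for the label OGT-KO, with dark symbols for no recovery and light symbols for 7 days. Bars are 95% exact intervals and cover counting error only. Ces3b spans the widest range, from 4.24 to 887 CPM, and the squares of Ces2e lie 2.04-fold and 1.95-fold above its circles.

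The Ces3 genes, liver enzymes whose coding sequences are close copies of one another, made up the largest part of the carboxylesterase RNA in the libraries labelled control. Ces3a, listed as ENSMUSG00000069922 and located from 105048601 to 105058413, had 2621 CPM at no recovery and 2593 at 7 days in these libraries, where it ranked 51 and 49 among all genes. In the libraries labelled OGT-KO it had 269 and 463 CPM. Ces3a was thus 9.74-fold lower with no recovery (ratio 0.1027, 0.09997 to 0.1054) and 5.60-fold lower (5.48 to 5.72) after 7 days. Both OGT-KO levels lay far below both control levels.

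Ces3b (ENSMUSG00000062181, 105083753 to 105093929) had the largest difference of the family. It had 14739 reads, or 693 CPM, with the label control and no recovery and 17723 reads, or 887 CPM, with that label at 7 days. The libraries labelled OGT-KO had 97 reads, or 4.24 CPM (3.44 to 5.18), and 677 reads, or 30.0 CPM (27.8 to 32.4). The gene that ranked 175 of 13903 with the label control ranked 11469 with the label OGT-KO at the same time. It was 163-fold lower with no recovery (134 to 202) and 29.6-fold lower after 7 days (27.4 to 32.0). On the log2(CPM + 1) scale its fold changes were -7.05 and -4.84, and 12 and 16 of the compared genes lay below it.

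Ces3a and Ces3b share 95.27% of their coding bases over 1713 aligned positions, and the way reads on both were counted is not given in the sources used here. Of the stretches of 100 bases along the longest transcript of each gene, 9.09% in Ces3a and 7.68% in Ces3b occur in another carboxylesterase gene. Of the stretches of 50 bases, 30.9% in Ces3a and 26.1% in Ces3b do. Most stretches of either length are thus unique to one gene of the family. The sum of Ces3a and Ces3b does not depend on how reads on both were split, though it would change if they were left out. It was 273 CPM against 3315 with no recovery and 493 against 3480 after 7 days, which is 12.1-fold (11.8 to 12.5) and 7.06-fold lower (6.92 to 7.20) with the label OGT-KO, and 19.97-fold and 11.4-fold lower with median-ratio scaling. The members of the pair differed unequally. For every 100 reads of Ces3a there were 26.5 and 34.2 reads of Ces3b in the libraries labelled control, against 1.58 with no recovery and 6.48 after 7 days in those labelled OGT-KO. These ratios are taken within a library and do not depend on scaling. They do depend on how reads on both genes were split, as does the 163-fold value of Ces3b.

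**Figure D2:**
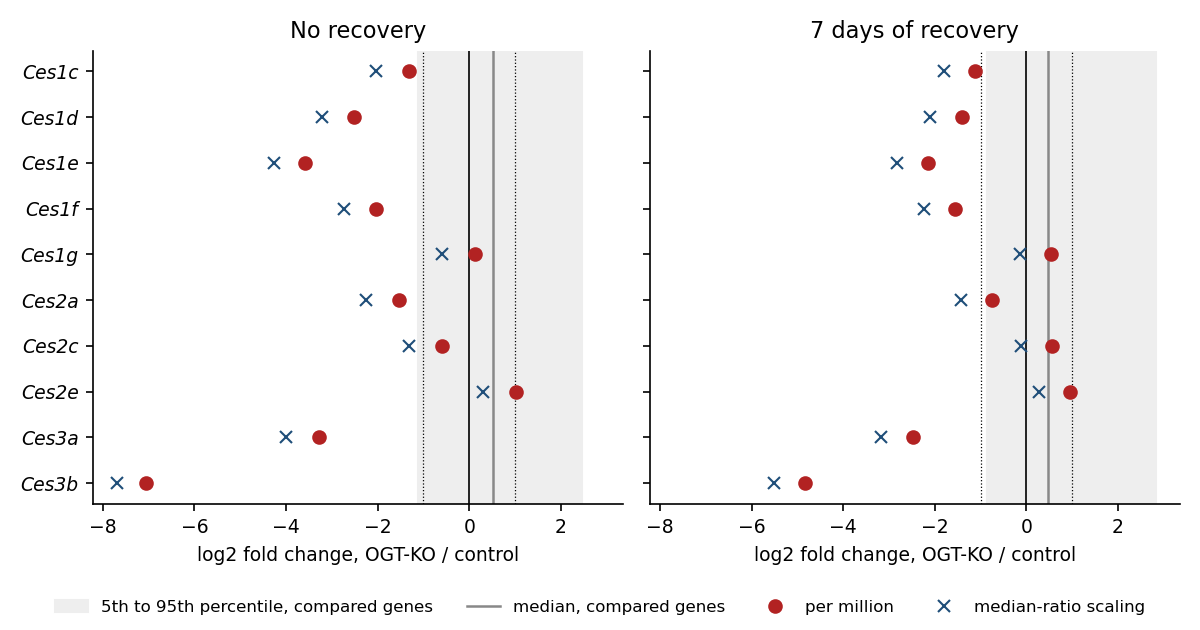
Log2 fold change of each member between the labels, OGT-KO over control, with no recovery (left) and after 7 days (right), on the log2(CPM + 1) scale. Circles are values as deposited, crosses are values after median-ratio scaling, and dotted lines mark 2-fold. The grey band is the range from the 5th to the 95th percentile of the 8963 compared genes, and the grey line is their median. Band and line are drawn from the values as deposited, so they apply to the circles only. With median-ratio scaling the medians are -0.19 and -0.18, and no band is drawn for the crosses. The circles of Ces3b, Ces1e and Ces3a lie farthest below the band at both times, and those of Ces2e lie inside it.

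The Ces1 genes encode the enzymes most often tied to plasma and to lipoprotein assembly. Ces1c (ENSMUSG00000057400, 93099015 to 93131283), a secreted esterase that is abundant in mouse plasma, was the most abundant of them in every library. It had 1894 and 2163 CPM in the libraries labelled control and 755 and 997 in those labelled OGT-KO. The OGT-KO levels were 2.51-fold (2.46 to 2.55) and 2.17-fold lower (2.14 to 2.21), the smallest differences among the 6 members past 2-fold at both times. When libraries were scaled to the summed hepatocyte markers, an alternative chosen after seeing the data, Ces1c was no longer 2-fold lower (-0.89 and -0.78 on the log2 scale).

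Ces1d (ENSMUSG00000056973, 93166068 to 93197838), the triacylglycerol hydrolase that mobilises stored triglyceride for lipoprotein assembly, had 392 and 281 CPM with the label control. It had 68.1 and 105 CPM with the label OGT-KO, 5.75-fold lower (5.45 to 6.08) with no recovery and 2.68-fold lower (2.55 to 2.81) after 7 days. Ces1f (ENSMUSG00000031725, 93256236 to 93279747), a related hydrolase of the endoplasmic reticulum, had 423 and 318 CPM with the label control against 103 and 108. It was 4.10-fold (3.92 to 4.30) and 2.95-fold lower (2.82 to 3.10). For both genes the highest OGT-KO level was below the lowest control level.

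Ces1e (ENSMUSG00000061959, 93201218 to 93229619) encodes egasyn, which holds beta-glucuronidase in the endoplasmic reticulum. It had 153 and 113 CPM with the label control and 11.9 (10.6 to 13.4) and 24.7 (22.7 to 26.9) with the label OGT-KO. Ces1e was 12.9-fold (11.4 to 14.6) and 4.58-fold lower (4.17 to 5.03), with log2 fold changes of -3.58 and -2.15. With no recovery 42 compared genes lay below it, and Ces3b was the one member among them. After 7 days Ces3a, at -2.48, lay below it as well.

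Ces1g (ENSMUSG00000057074, 93302369 to 93337308), a lipid ester hydrolase of the liver, did not go with its neighbours in the cluster. It had 155 and 165 CPM with the label control and 169 and 239 with the label OGT-KO. Its log2 fold changes of 0.12 and 0.54 turned to -0.59 and -0.15 with median-ratio scaling, and against the median of all compared genes they were -0.39 and 0.057, so no direction can be given for Ces1g itself. Its share within the family could be read without scaling. For every 100 reads of Ces1d there were 39.6 and 58.5 reads of Ces1g with the label control and 248 and 228 with the label OGT-KO. For every 100 reads of Ces1c there were 8.19 and 7.61 with the label control and 22.4 and 24.0 with the label OGT-KO. The coding sequences of Ces1g and Ces1d are 81.53% identical, and their longest transcripts share no stretch of 100 bases with another carboxylesterase gene. Of the stretches of 50 bases, 1.67% in Ces1g and 1.28% in Ces1d are shared. In Ces1c 1.39% of the stretches of 100 bases and 13.4% of those of 50 bases are shared. Summed over the 5 Ces1 members, RNA was 2.73-fold lower (2.69 to 2.77) with no recovery and 2.06-fold lower (2.04 to 2.09) after 7 days, and 4.49-fold and 3.32-fold lower with median-ratio scaling.

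The Ces2 genes, whose products hydrolyse prodrugs and acylglycerols in liver and intestine, were divided among themselves. Ces2a (ENSMUSG00000055730, 104734003 to 104741634) had 382 and 362 CPM with the label control and 131 and 216 with the label OGT-KO. It was 2.91-fold lower (2.79 to 3.04) with no recovery and 1.68-fold lower (1.62 to 1.74) after 7 days, where it did not reach 2-fold as deposited (-0.74) and did with median-ratio scaling (-1.43). Both OGT-KO levels lay below both control levels.

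Ces2e (ENSMUSG00000031886, 104926260 to 104934672) had 167 and 142 CPM with the label control and 339.5 and 278 with the label OGT-KO. With no recovery the ratio of OGT-KO to control was 2.04 (1.96 to 2.12), and it was 1.95 (1.87 to 2.04) at the later time. Both OGT-KO levels were above both control levels, yet the count as 2-fold higher with no recovery rests on the scaling, since the log2 fold change of 1.02 became 0.30 with median-ratio scaling and 0.54 with upper-quartile scaling. At the deposited scaling Ces2e was 0.51 and 0.48 above the median of all compared genes, and 2128 and 2158 compared genes lay above it. Against Ces2a and Ces3a, both lower with the label OGT-KO, the difference was larger. For every 100 reads of Ces2a there were 43.7 and 39.3 reads of Ces2e with the label control, and 259 and 129 with the label OGT-KO. For every 100 reads of Ces3a there were 6.36 and 5.49 with the label control, and 126 and 60.1 with the label OGT-KO. The coding sequences of Ces2e and Ces2a are 83.27% identical and their longest transcripts have no stretch of 100 bases in common with another gene of the family. Of the stretches of 50 bases, 3.4% in Ces2e and 2.4% in Ces2a are shared.

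Ces2c (ENSMUSG00000061825, 104847068 to 104854483) had 91.8 and 68.9 CPM with the label control and 60.3 and 102 with the label OGT-KO. The level with the label OGT-KO was below control with no recovery (log2 fold change -0.60) and above it after 7 days (0.56), and the second sign turned with median-ratio scaling (-1.31 and -0.12). It is also the member with the most shared sequence, as 15.7% of its stretches of 100 bases and 40.2% of those of 50 bases occur in another carboxylesterase gene. The sum of the 3 Ces2 members was 1.21-fold lower (1.18 to 1.24) with no recovery, or 1.99-fold with median-ratio scaling, and after 7 days the ratio was 1.04 (1.01 to 1.07), turning to a log2 ratio of -0.63 with median-ratio scaling.

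**Figure D3:**
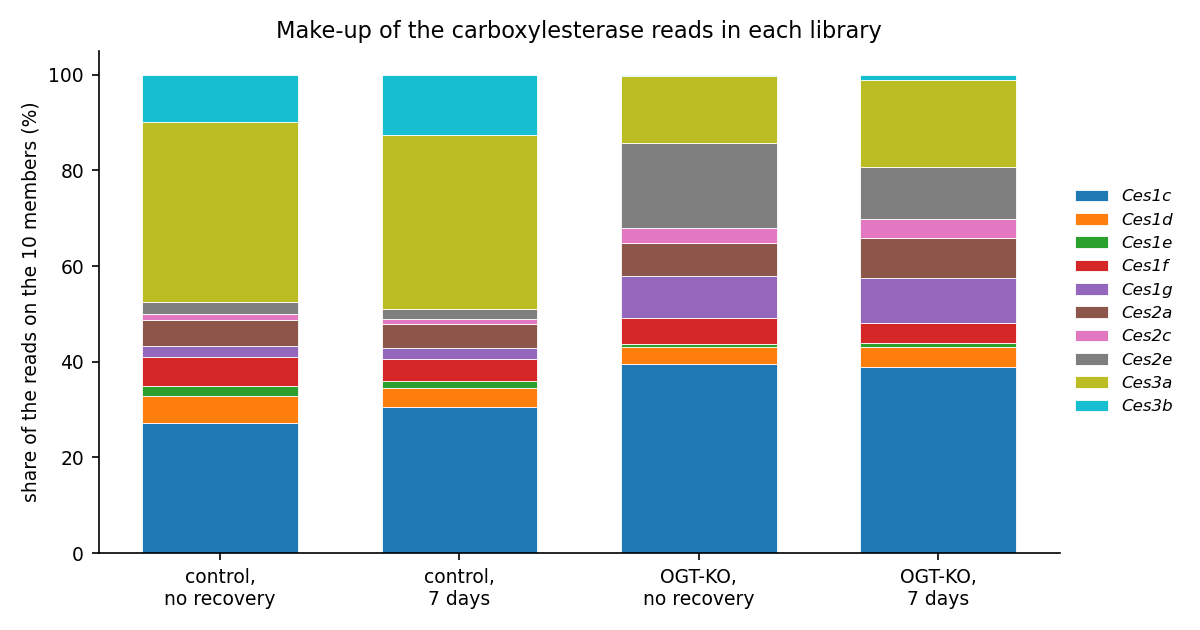
Make-up of the carboxylesterase reads in each library, as the percentage of the reads on the 10 members that fall on each. The Ces3 genes hold 47.5% and 49.1% with the label control and 14.3% and 19.2% with the label OGT-KO, while Ces2e goes from 2.39% and 2.01% to 17.8% and 10.9%.

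The make-up of the family differed between the labels, and less between the time points. The Ces3 genes held 47.5% of the member reads with the label control and no recovery and 14.3% with the label OGT-KO. Ces2e held 2.39% (2.31 to 2.47) and 17.8% (17.4 to 18.1) in the same libraries. Ces1c became the leading member with the label OGT-KO, at 39.5% and 38.9% of member reads, whereas Ces3a led with the label control at 37.6% and 36.6%. Per kilobase of exon, the order from the highest level with the label control and no recovery was Ces3a, Ces1c, Ces3b, Ces1d, Ces2a, Ces1f, Ces1e, Ces1g, Ces2e and Ces2c, from 998 down to 40.0 CPM per kb. With the label OGT-KO it was Ces1c, Ces2e, Ces3a, Ces1g, Ces2a, Ces1f, Ces1d, Ces2c, Ces1e and Ces3b, from 325 down to 1.65 CPM per kb. Neighbours in these orders changed places when the longest transcript was used as the length, as with Ces1f, Ces1d and Ces2a in the first and Ces2e and Ces3a in the second. In the first order the counting intervals of Ces1d and Ces2a (165 and 162 CPM per kb) overlapped, as did those of Ces1g and Ces2e (64.9 and 61.8), and in the second those of Ces1d overlapped with Ces1f and with Ces2c.

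Recovery was compared within each label, and the summed carboxylesterase level was close to constant with the label control. There 0 members differed by 2-fold between no recovery and 7 days, against 0.960% of compared genes lower and 0.245% higher at 7 days, and the summed level was 1.02-fold that with no recovery. The member values ran from -0.48 for Ces1d to 0.36 for Ces3b on the log2 scale. The 5th and 95th percentiles of the compared genes were -0.54 and 0.33, so Ces3b lay above the upper one. Ces1d, Ces1e, Ces1f and Ces2c lay between -0.48 and -0.41, below the median of -0.051 of all compared genes. With the label OGT-KO the summed level was 1.34-fold higher at 7 days (1.32 to 1.36). Of the members 9 of 10 were higher at 7 days, as were 45.5% of compared genes, and Ces2e was lower at -0.29.

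Ces3b was the one member at least 2-fold higher after 7 days with the label OGT-KO (1.04% of compared genes were higher and 0.435% lower). Its level went from 4.24 to 30.0 CPM, a ratio of 7.07 (5.71 to 8.84), and 3 of the compared genes lay above its log2 fold change of 2.56. Its level after 7 days was still 29.6-fold below that of the library labelled control. Ces1e had a ratio of 2.07 (1.79 to 2.40), which is 0.99 on the log2(CPM + 1) scale and so just under 2-fold there. Ces3a, Ces2c, Ces2a and Ces1d had log2 fold changes of 0.78, 0.75, 0.72 and 0.62, and Ces1f stayed within counting error at a ratio of 1.04 (0.986 to 1.11).

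The log2 fold change between the labels was higher (less negative or more positive) after 7 days than with no recovery for 9 of the 10 members and for 54.3% of compared genes, and for Ces2e it was lower by a small amount (-0.059). The median shift was 0.79 for the members and 0.034 for all compared genes, with 2.21 for Ces3b, 1.43 for Ces1e and 1.16 for Ces2c. Without replicates this difference between the time points was not tested.

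**Figure D4:**
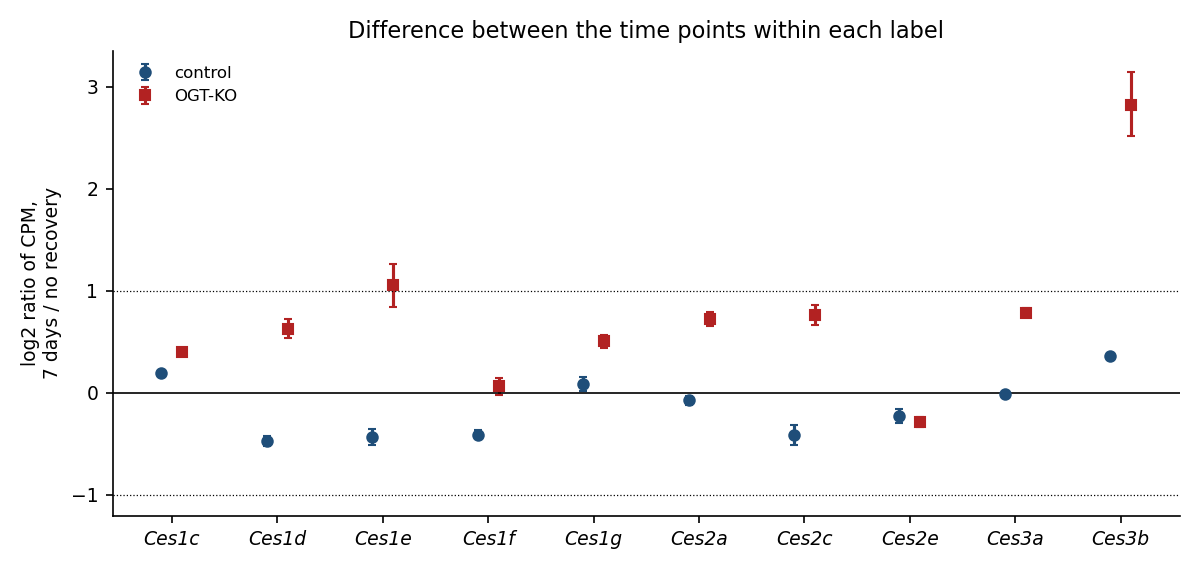
Log2 ratio of CPM at 7 days over no recovery for each member, circles for the label control and squares for the label OGT-KO, without an added constant. Bars are 95% exact intervals and cover counting error only, and dotted lines mark 2-fold. With the label OGT-KO Ces3b stands at a ratio of 7.07 and Ces1e at 2.07, and with the label control no member passes a dotted line.

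The 5 carboxylesterase genes outside the members were all lower in abundance than most members. Ces1b had 76.6 and 72.9 CPM with the label control and 39.3 and 32.1 with the label OGT-KO, log2 fold changes of -0.94 and -1.16. Its coding sequence is 90.85% identical to that of Ces1c, so its reads are uncertain in the same way as those of the Ces3 pair. Ces2g had 38.3 and 42.0 CPM with the label control and 55.1 and 71.0 with the label OGT-KO, log2 fold changes of 0.51 and 0.74, which is 0.0067 and 0.27 above the median of all compared genes. The others were below the filter of 10 CPM. Ces4a, the last gene of the second cluster, had 115 and 127 reads with the label control and 2 and 1 with the label OGT-KO, which is under the 3 reads taken as detected. The ratio of OGT-KO to control was 0.0162 with no recovery (0.00194 to 0.0598) and 0.00697 after 7 days (0.000175 to 0.0395), so its size is known only within these wide counting intervals. Ces2b had 6.87 and 4.61 CPM with the label control and 1.05 and 2.13 with the label OGT-KO, and Ces1a had 7 to 20 reads in each library.

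Genes that flank the clusters, chosen after the members' values were seen, had other values. On the sides of the first cluster, Mmp2 was higher with the label OGT-KO (log2 fold changes 3.76 and 4.63), while Nudt21 (0.33 and 0.25) differed by less than 2-fold. On the sides of the second cluster, Ciao2b (0.32 and 0.31) and D230025D16Rik (-0.34 and -0.29) differed by less than 2-fold and Cbfb had 1.06 and 0.84. None of these 5 neighbours was 2-fold lower.

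Markers of other liver cell types differed between the labels, where 24.4% of all compared genes were at least 2-fold higher with no recovery and 22.9% after 7 days. The 6 bile duct and progenitor markers summed to 1170 and 1483 CPM with the label OGT-KO and 53.7 and 69.9 with the label control, and all 6 were at least 2-fold higher at both times, among them Epcam (4.68 and 4.64 on the log2 scale) and Spp1 (4.54 and 4.55). The 7 stellate and myofibroblast markers summed to 3225 and 3964 CPM against 198 and 140 and were all at least 2-fold higher at both times, with the collagen genes Col1a1 (5.32 and 6.09) and Col1a2 (4.67 and 5.66) highest. Of the macrophage markers 5 of 6 passed the filter, all 5 were at least 2-fold higher at both times, and the summed levels of the 6 were 745 and 503 CPM against 230 and 85.9. Cd68 had 2.51 and 3.25 and Adgre1 had 1.93 and 2.78. The 5 endothelial markers had medians of 0.63 and 0.64, with 2 at least 2-fold higher with no recovery, Lyve1 (1.90, and 0.99 after 7 days) and Pecam1 (1.29 and 0.88), and 0 after 7 days. Lymphocyte and neutrophil markers, 3 of each in the table, stayed below the filter at no more than 23.4 CPM summed.

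The hepatocyte markers, secreted plasma proteins in the main, were nearer to level than the carboxylesterases. The 9 listed markers summed to 74785 and 87852 CPM with the label OGT-KO and 101242 and 111290 with the label control, with median log2 fold changes of -0.81 and -0.44. Albumin (Alb) stood at -0.21 and -0.080, whereas 3 markers with no recovery and 4 after 7 days were at least 2-fold lower, among them Serpina1c (-1.90 and -1.82) and Apoa1 (-1.60 and -1.97). Of all compared genes 5.69% and 4.27% were at least 2-fold lower, and their medians were 0.51 and 0.48. Alb, the largest part of these sums, held 41362 and 51507 CPM with the label OGT-KO and 47845 and 54434 with the label control. A scaling to the sum therefore follows Alb more than the other markers. With libraries scaled to the sum of the 9 markers, 6 members were 2-fold lower with no recovery and 5 after 7 days. Of the 8963 compared genes, 321 and 226 were at least 2-fold lower with this scaling. Ces2e was 2-fold higher at both times (1.46 and 1.30), as were 4116 and 3362 of the compared genes. The medians of all compared genes with this scaling were 0.93 and 0.81. The part of the other cell types in the carboxylesterase values was not tested.

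**Figure D5:**
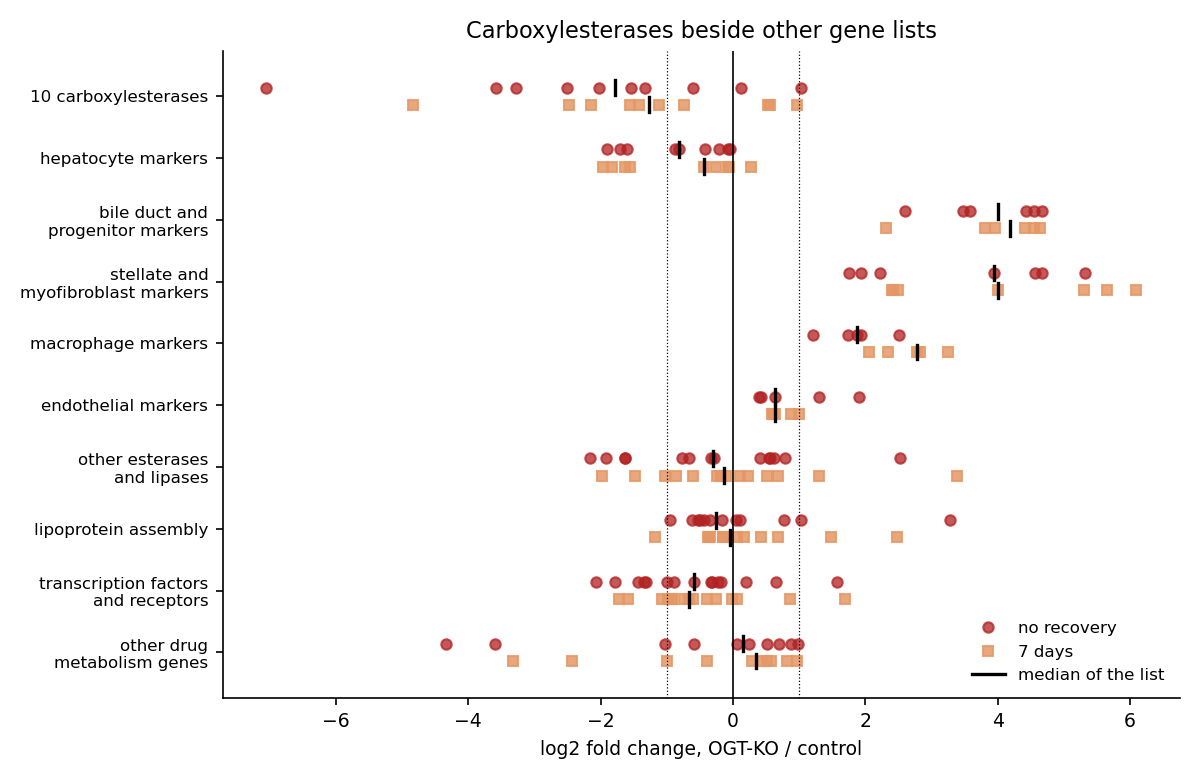
Log2 fold changes between the labels, OGT-KO over control, of the 10 carboxylesterases and of the genes of each context list that passed the filter, circles for no recovery and squares for 7 days, with the median of each list as a black bar and dotted lines at 2-fold. The carboxylesterases have medians of -1.78 and -1.27, below those of the hepatocyte markers at -0.81 and -0.44, and reach from -7.05 to 1.02.

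Other enzymes that cut esters or lipids had values on both sides of 0. Of 14 such esterases and lipases past the filter, 4 were at least 2-fold lower and 1 higher with no recovery and 3 lower and 2 higher after 7 days, with medians of -0.31 and -0.14. Over all compared genes 5.69% were lower and 24.4% higher with no recovery, 4.27% and 22.9% after 7 days, and the medians were 0.51 and 0.48. Pon1, the serum paraoxonase carried on high-density lipoprotein, was lower (-1.92 and -1.98). Lpl, the lipoprotein lipase, was higher (2.53 and 3.39). Aadac, another lipid hydrolase of the endoplasmic reticulum, had -1.62 and -1.02, and Mgll, the monoglyceride lipase, had -2.16 on the same scale with no recovery and -1.49 after 7 days.

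The genes of triglyceride-rich lipoprotein assembly, the process that Ces1d supplies with lipid, were mostly within 2-fold between the labels. Of 12 such genes, 0 were 2-fold lower and 2 higher with no recovery and 1 lower and 2 higher after 7 days, and so few lower genes are near the 5.69% and 4.27% of all compared genes. The medians of -0.26 and -0.045 lay below those of all compared genes, 0.51 and 0.48. Apob, the structural protein of the particle, had -0.53 and -0.15, and Mttp, which loads it with lipid, had -0.35 and 0.061. Apoa4 (3.28 and 2.48) and Tm6sf2 (1.03 and 1.47), which acts in lipidation of the particle, were higher, and the one gene lower after 7 days was Dgat2, a triglyceride synthase, at -1.18.

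Among the other genes of drug hydrolysis and conjugation, 3 of 10 were 2-fold lower with no recovery and 2 after 7 days and 0 were higher, against 5.69% and 4.27% of all compared genes lower and 24.4% and 22.9% higher. Their medians of 0.16 and 0.35 lay below the 0.51 and 0.48 of all compared genes. Cyp2c29 (-4.33 and -2.43) and Ugt2b1 (-3.60 and -3.32) differed the most. Cyp3a11, the main CYP3A enzyme of mouse liver, had 0.068 and 0.28.

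Of 15 transcription factors and receptors that act on liver genes, 5 were 2-fold lower and 1 higher with no recovery and 3 lower and 1 higher after 7 days, with medians of -0.58 and -0.66. All compared genes, at 5.69% lower and 24.4% higher and then 4.27% and 22.9%, had medians of 0.51 and 0.48. Hnf4a, the nuclear receptor that maintains hepatocyte expression, had -1.34 and -0.91. Nr1i3, the xenobiotic receptor CAR, had -1.43 and -0.99, and Ppara, the fatty acid receptor, had -1.31 and -0.92. The growth hormone receptor Ghr (-2.07 and -1.72) and Onecut1 (-1.78 and -1.59) had the lowest values of the list. Nfe2l2, the gene of the stress factor NRF2, was higher (1.57 and 1.70), and Nr1i2, the xenobiotic receptor PXR, had 0.65 and 0.86. Whether any of these levels bears on the carboxylesterases was not tested.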

How the data were processed

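Total RNA of liver was extracted with TRIzol and mRNA libraries were made with a Tecan kit, per the labels. The submitters' processing notes name STAR, DESeq2 and the GRCm39 genome without roles or versions. The annotation, counting, strand setting and gene filter are not given in the sources used here, and neither is the handling of reads that match several genes. The authors deposited 1 table of 13903 genes whose values are CPM (counts scaled to a fixed library total): each of the 4 columns sums to 1000000. The table is named for DESeq2 normalization, which its values do not show. In each library 100.0% of values were whole multiples of 1 read (tolerance 0.01), so whole reads were recovered, with 1 read worth 0.0437 to 0.0501 CPM. The sum of reads on the listed genes stands for depth, and 3 reads were taken as the floor.

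Values were compared as log2(CPM + 1) for the 8963 genes that averaged 10 CPM or more, and a 2-fold difference was counted. No test between conditions was run, and neither was a joint fit of label and time, which would take their interaction as the error. Exact Clopper-Pearson and exact conditional binomial intervals (95%) were computed on the reads. The members and the gene lists were chosen with earlier results of these data known. Named genes are the 10 members, the other listed carboxylesterases and, from each list, the 2 genes with the largest absolute mean log2 fold change between the labels. Further list members were named for their known role after their values were seen. The genes beside the clusters and the pancreatic genes fall outside this rule and were chosen after values were seen. Pnpla3, Trac and Ncr1 had no value to use, and transferrin, listed by both its symbols Tf and Trf, was found as Trf.

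Coordinates, exon lengths, coding sequence identity and shared stretches come from GENCODE M21 on GRCm38, where 13893 gene identifiers were found, and not from the GRCm39 build the notes name. Promoters come from RefSeq on GRCm38.p6, and the 50 bases after the start were left out. The design had foreseen size-factor values, and its comparisons were kept on CPM.

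Alternatives were median-ratio and upper-quartile scaling, a pseudocount of 0.1 or 10, no filter or a mean of at least 50 CPM, a 4-fold threshold, and an exact binomial test on whole reads with p-values adjusted by Benjamini-Hochberg. That test compares libraries and not conditions, and at an adjusted p under 0.05 it called 8011, 7899, 3524 and 5048 of the 8963 genes in the comparisons between labels (no recovery, 7 days) and between times (control, OGT-KO). Scaling to the summed hepatocyte markers, and both other scalings of the sum over all members, were added after seeing the data. The steps were tested on simulated reads. Python 3.11.15 was used with numpy 2.4.6, pandas 2.3.3, scipy 1.17.1, matplotlib 3.10.9 and Biopython 1.88.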

Additional observations from a re-analysis of the deposited data

Results flagged for a closer look

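Ces2c had opposite signs between the labels at the 2 time points, with a log2 fold change of -0.60 with no recovery and 0.56 after 7 days. Its levels were 60.3 CPM with the label OGT-KO and 91.8 with the label control, then 102 and 68.9 CPM. With median-ratio scaling the values were -1.31 and -0.12, of 1 sign. Of its longest transcript, 15.7% of the stretches of 100 bases and 40.2% of those of 50 bases are shared with another carboxylesterase gene. With 1 library per condition the difference between the time points was not tested.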

How the results depend on the processing

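With 1 library per condition no setting adds replicate error, and depth limits only genes near 3 reads, such as Ces4a. The counts of members stayed within 1.5 times of those given under most settings. A 4-fold threshold left 5 members with no recovery (Ces1d, Ces1e, Ces1f, Ces3a, Ces3b) and 3 after 7 days (Ces1e, Ces3a, Ces3b), all lower, because the threshold is higher. With the label OGT-KO, 2 members (Ces1e and Ces3b) rather than 1 passed 2-fold over time with median-ratio scaling, upper-quartile scaling or a pseudocount of 0.1. Of all compared genes, 39 were at least 2-fold lower and 93 higher over time with this label as reported. Under these settings, in the same order, the counts lower and higher were 29 and 115, 33 and 111, and 43 and 116. Ces2e, higher with no recovery as deposited, was lost with both scalings and with a pseudocount of 10, and both scalings added Ces2c to the lower members with no recovery and Ces2a after 7 days. Scaled to hepatocyte markers, an alternative added after seeing the data, Ces1c was lost at both times and Ces2e was higher at both. The exact binomial test removed no member. Over all compared genes, those at least 2-fold lower and higher went from 510 and 2185 to 1381 and 935 (no recovery) and from 383 and 2050 to 1055 and 1037 (7 days) with median-ratio scaling, to 981 and 1208 and to 740 and 1215 with upper-quartile scaling, and to 321 and 4116 and to 226 and 3362 with hepatocyte markers. Without the filter they were 605 and 4595 and then 461 and 4492, with a mean of at least 50 they were 351 and 525 and then 281 and 503, with a 4-fold threshold 164 and 691 and then 87 and 788, and with a pseudocount of 10 they were 414 and 1367 and then 305 and 1344.

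The log2 ratios of summed reads kept their sign except for Ces2 after 7 days, whose 0.056 was within 1.04-fold of level. With median-ratio and upper-quartile scaling the sums between labels were, with no recovery and then 7 days, -2.17 and -1.73, and -1.93 and -1.53, for Ces1. For Ces2 they were -0.99 and -0.63, and -0.75 and -0.43. For Ces3 they were -4.32 and -3.51, and -4.08 and -3.31. For all 10 members, added after seeing the data, they were -2.59 and -2.15, and -2.35 and -1.96. Over time, with the labels control and then OGT-KO, they were 0.050 and 0.49, and 0.062 and 0.46, for Ces1. For Ces2 they were -0.12 and 0.24, and -0.11 and 0.21. For Ces3 they were 0.11 and 0.92, and 0.12 and 0.90, and for all 10 members 0.064 and 0.50, and 0.076 and 0.47. Of 200 log2 fold changes of single members under alternatives, 192 kept their sign, and 0 of the 8 that did not were of at least 1 as reported.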

Other observations

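With no recovery, the library labelled OGT-KO held RNA of pancreatic digestive enzymes of which the other libraries held few or no reads, apart from Cela1. The list was chosen after Cel, the bile salt-activated lipase of the pancreas, was seen among the other lipases with 169 reads in this library and 0 in each of the others. The chymotrypsinogen gene Ctrb1 had 359 reads (15.7 CPM) against 1, 2 and 0. The pancreatic lipase gene Pnlip had 216 reads, the carboxypeptidase genes Cpa1 and Cpb1 had 152 and 106, and the trypsinogen gene Prss2 had 117, each against 0 in the other libraries. The elastase gene Cela1 was present throughout, with 205 to 433 reads. These levels, of at most 15.7 CPM, compare with 1911 CPM for the 10 carboxylesterases in the same library, and their part in any carboxylesterase value was not tested.

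Macrophage markers were lower after the 7 days with the label control, where the summed carboxylesterase level was nearly constant. The 6 markers summed to 230 CPM with no recovery and 85.9 CPM after 7 days with this label. All 5 past the filter were at least 2-fold lower, against 0.960% of compared genes. Their median log2 fold change was -1.31, against -0.051 for all compared genes. With the label OGT-KO the sums were 745 and 503 CPM. There 0 of the 5 were 2-fold lower, against 0.435% of compared genes, and the median was -0.46, against -0.027.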
